A study of Arabidopsis thaliana with 18 samples.

Results

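The genes described here are 9 Arabidopsis thaliana loci that make or break down the raffinose family of sugars in seeds, chosen by name from what their products are known to do. These loci were chosen with earlier results of these data known. They are the galactinol synthases GOLS1 (AT2G47180), GOLS2 (AT1G56600) and GOLS3 (AT1G09350), the stachyose synthase RS4 (AT4G01970), the raffinose synthase RS5 (AT5G40390), the related gene DIN10 (AT5G20250), and the alpha-galactosidases AGAL1 (AT5G08380), AGAL2 (AT5G08370) and AGAL3 (AT3G56310). All 9 were among the 33602 transcript models counted, 1 per locus, and 8 of them were among the 18061 genes with enough read pairs to be tested. GOLS3 was not tested, because it held 5 pairs in all, spread over 3 of 18 libraries.

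Raffinose family sugars are chains of galactose on sucrose that build up late in seed maturation and are used after water uptake. Galactinol synthase joins UDP-galactose to myo-inositol, raffinose synthase moves the galactose of galactinol onto sucrose, stachyose synthase adds a further galactose, and alpha-galactosidases remove galactose again. In Arabidopsis, GOLS1 and GOLS2 are known for responses to drought, salt and heat, GOLS3 for its response to cold, and DIN10 takes its name from induction in the dark.

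Polyadenylated RNA was sequenced from seeds of 3 genotypes, labelled mpk8 mutant, tcp14 mutant and wild type, each taken after 24 h of imbibition or dry, with 3 libraries in each of 6 groups. All plants were grown on soil at 21 °C. Imbibed seeds were dormant and lay on wet filter paper in darkness at 25 °C, and dry seeds had no treatment. The design text speaks of gene knock out and of biological replicates, and the labels name no allele and do not say whether replicates were separate plants or seed lots. The p-values measure the spread between these libraries. MPK8 is a MAP kinase gene, and TCP14 encodes a TCP transcription factor.

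MPK8 averaged 4.31 CPM (read pairs scaled to the effective size of the library) in mpk8 and 11.7 CPM in wild type at 24 h, and 4.04 CPM in mpk8 and 11.4 CPM in wild type in dry seeds. TCP14 went against its label, with 34.5 CPM in the libraries labelled tcp14 and 15.7 CPM in wild type at 24 h, and 44.0 CPM in tcp14-labelled and 6.86 CPM in wild-type dry seeds. That line is therefore called tcp14-labelled. Libraries held 12170793 to 21233207 counted pairs. The 8 seed reserve markers all had pairs in all groups, with summed levels of 97902 to 99778 CPM in mpk8, 97464 to 140990 CPM in tcp14-labelled and 38982 to 47630 CPM in wild-type libraries at 24 h, and 146490 to 170500 CPM in dry seeds. The 4 leaf markers, small subunits of Rubisco, summed to 74.8 to 85.2 CPM in mpk8, 146 to 193 CPM in tcp14-labelled and 315 to 372 CPM in wild type at 24 h, and to 12.1 to 16.9 CPM in dry seeds. In dry seeds the 6 pollen markers summed to 89.8 to 93.9 CPM in mpk8, 155.5 to 219 CPM in tcp14-labelled and 147 to 161 CPM in wild-type libraries. They were all at 0 in tcp14-labelled and wild-type imbibed libraries, and reached at most 0.113 CPM in mpk8 imbibed libraries. The sums of the 3 marker lists moved with imbibition. At 24 h the leaf sums of the 3 genotypes did not overlap. The seed sum at 24 h was lower in wild type than in mpk8 and tcp14-labelled libraries, whose ranges overlapped. The pollen sum was lower in dry mpk8 than in the other dry libraries. Within the seed list, CRA1 went against the sum in mpk8 and in tcp14-labelled seeds. It averaged 58761 CPM at 24 h and 39395 CPM dry in mpk8, and 67232 CPM and 44065 CPM in tcp14-labelled seeds. The other seed markers averaged lower at 24 h than dry in each genotype, as did CRA1 in wild type. The part of the marker lists in the results on the members was not tested.

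The promoters of GOLS1, GOLS2, RS4 and DIN10 are shown, which are among the members that changed on imbibition and differed between the lines and wild type. Each is the 250 bases before the annotated gene start, 5′ to 3′ on the gene's strand, from RefSeq on TAIR10.1. Capitals mark matches on either strand to ACGTG (the core of abscisic acid response elements), CCGAC (the core of dehydration response elements), GAANNTTC (the core of heat shock elements) and CATGCA (the core of RY elements of seed promoters).
GOLS1, chr2:19370479-19370728, minus strand: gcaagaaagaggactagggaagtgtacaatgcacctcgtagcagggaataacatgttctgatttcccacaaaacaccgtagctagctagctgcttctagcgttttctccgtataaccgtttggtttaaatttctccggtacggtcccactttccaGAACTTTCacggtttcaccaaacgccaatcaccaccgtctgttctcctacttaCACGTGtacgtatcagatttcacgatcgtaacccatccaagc
GOLS2, chr1:21207287-21207536, plus strand: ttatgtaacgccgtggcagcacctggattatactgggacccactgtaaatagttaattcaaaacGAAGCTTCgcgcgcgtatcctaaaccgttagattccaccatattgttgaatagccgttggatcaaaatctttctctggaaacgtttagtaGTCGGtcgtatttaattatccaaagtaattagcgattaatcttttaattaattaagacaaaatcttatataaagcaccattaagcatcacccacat
RS4, chr4:857402-857651, minus strand: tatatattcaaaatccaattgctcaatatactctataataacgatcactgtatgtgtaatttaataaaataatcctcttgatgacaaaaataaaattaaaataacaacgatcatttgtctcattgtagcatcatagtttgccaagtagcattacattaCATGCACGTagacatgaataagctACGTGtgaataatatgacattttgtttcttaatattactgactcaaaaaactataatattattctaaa
DIN10, chr5:6833314-6833563, plus strand: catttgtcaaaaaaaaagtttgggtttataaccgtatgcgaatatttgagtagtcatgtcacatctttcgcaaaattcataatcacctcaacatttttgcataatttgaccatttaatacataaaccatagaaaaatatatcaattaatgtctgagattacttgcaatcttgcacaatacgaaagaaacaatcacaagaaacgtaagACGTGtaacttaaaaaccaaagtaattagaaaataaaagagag

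GOLS1 held CACGTG, which is 2 overlapping matches to ACGTG on opposite strands, and a match to GAANNTTC. GOLS2 held a match each to GAANNTTC and CCGAC. RS4 held 2 matches to ACGTG, and the upstream copy overlapped a match to CATGCA. DIN10 held a match to ACGTG. AGAL1 and AGAL2, which also changed on imbibition and are not shown, held no match to any of these motifs. Among the 9 members, ACGTG was present in 5, CCGAC in 3, GAANNTTC in 2 and CATGCA in 1. Over 27443 promoters of the same length, ACGTG was present in 22.9%, CCGAC in 12%, GAANNTTC in 9.55% and CATGCA in 8.43%. A match describes the letters only.

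Imbibition changed nearly all of these genes, in both directions. In wild type, GOLS1, GOLS2 and AGAL3 fell, and RS4, DIN10, AGAL1 and AGAL2 rose, which is 7 of 8 tested members called (4 higher and 3 lower). Of all 18061 genes tested, 86.1% were called in that comparison, 46% higher and 40.1% lower, so the number called is near that of genes at large. In mpk8 all 8 were called, 4 higher and 4 lower, beside 83.1% of all genes (44.4% higher and 38.7% lower). In tcp14-labelled seeds all 8 were also called, 4 higher and 4 lower, beside 83.1% of all genes (43.8% higher and 39.3% lower). A call is an adjusted p under 0.05 in edgeR's quasi-likelihood test with Benjamini-Hochberg adjustment. In whole seeds, fewer cells of a type and less RNA per cell cannot be told apart.

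Among the galactinol synthases, GOLS1 and GOLS2 were the most abundant members in dry seeds of all 3 genotypes. Levels are given as FPKM, which is CPM per kilobase of the transcript model. GOLS1 had 93.6, 112 and 94.8 FPKM in the wild-type libraries at 24 h, against 472, 483 and 513 FPKM in dry wild type, a fall of 4.90-fold (log2 change -2.29 ± 0.08 SE, adjusted p = 5.94e-18). GOLS2 had 21.4, 28.9 and 23.2 FPKM at 24 h, against 582, 566 and 608 FPKM in dry wild type, a fall of 24.0-fold (log2 change -4.59 ± 0.09 SE, adjusted p = 2.33e-22). In wild type GOLS2 was thus the lower of the pair in each library at 24 h and the higher in each dry library. The fall was smaller in the other genotypes, with a log2 change of GOLS1 of -1.19 ± 0.08 in mpk8 and -1.23 ± 0.08 in tcp14-labelled seeds. For GOLS2 it was -3.34 ± 0.09 in mpk8 and -3.72 ± 0.09 in tcp14-labelled seeds. GOLS3 had no pair in any of the 9 imbibed libraries, and in dry seeds had 3 pairs in mpk8 and 2 in wild type, which are at or under the limit of 3 pairs over a group, so no fold is given.

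The synthases of the later steps behaved unlike each other. RS4 had 14.4, 16.0 and 14.98 FPKM in wild type at 24 h, against 7.69, 6.74 and 7.52 FPKM in dry wild type, a rise of 2.07-fold (log2 change 1.05 ± 0.09 SE, adjusted p = 3.28e-10). Its rise was 5.07-fold in mpk8 and 3.57-fold in tcp14-labelled seeds. RS5 was near the limit of counting, with 3 to 61 pairs in a library. In wild type it had 0.653, 0.560 and 0.799 FPKM at 24 h, against 0.476, 0.601 and 0.331 FPKM dry, and the groups overlapped (log2 change 0.51 ± 0.32 SE, adjusted p = 0.14). It fell in mpk8 (log2 change -2.28 ± 0.41 SE, adjusted p = 2e-05) and in tcp14-labelled seeds (-1.08 ± 0.34, adjusted p = 0.0063). The call in tcp14-labelled seeds was lost without dry replicate 1 of that line, which leaves -0.47, and with library totals as the scaling, which gives -0.34. With library totals the change of RS5 in wild type was 1.59 and was called.

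DIN10 had the largest rise in wild type among the members with pairs in both groups. It had 56.2, 47.1 and 58.2 FPKM in wild type at 24 h, against 0.279, 0.247 and 0.151 FPKM in dry wild type, where 4 to 8 pairs were counted in a library. That is a rise of 233-fold (log2 change 7.87 ± 0.35 SE, adjusted p = 6.92e-16). It was 16.7-fold in mpk8 (4.06 ± 0.51) and 21.5-fold in tcp14-labelled seeds (4.42 ± 0.32). DIN10 was among the least abundant tested members in dry seeds and among the more abundant at 24 h in wild type.

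The alpha-galactosidases exchanged places. AGAL3 had 30.0, 30.2 and 29.6 FPKM in wild type at 24 h, against 88.7, 91.4 and 95.5 FPKM in dry wild type (log2 change -1.62 ± 0.05 SE, adjusted p = 4.92e-19). AGAL1 had 36.8, 38.0 and 33.7 FPKM at 24 h, against 3.62, 3.53 and 3.91 FPKM dry, a rise of 9.81-fold (log2 change 3.29 ± 0.11 SE, adjusted p = 1.54e-18). AGAL3 fell and AGAL1 rose in all 3 genotypes. The log2 change of AGAL3 was -1.39 ± 0.05 in mpk8 and -1.12 ± 0.05 in tcp14-labelled seeds, and that of AGAL1 was 4.04 ± 0.10 in mpk8 and 3.40 ± 0.10 in tcp14-labelled seeds. AGAL2, which lies next to AGAL1 on chromosome 5 with no protein-coding gene between them, had 929 pairs over the 3 wild-type libraries at 24 h and none in dry wild type, so it was at least 136-fold higher at 24 h, with the dry group set at 3 pairs in all. In mpk8 it had 38 pairs at 24 h and none dry, at least 7.01-fold higher. In tcp14-labelled seeds it had 130 pairs at 24 h and 1 dry, a ratio of 82.5 with an exact 95% counting interval of 14.5 to 3282. Summed over the 3 genes, alpha-galactosidase level at 24 h was 92.8 ± 2.48 FPKM in mpk8, 86.7 ± 5.32 FPKM in tcp14-labelled and 74.5 ± 1.74 FPKM in wild type. In dry seeds the sum was 103.6 ± 2.42 FPKM in mpk8, 89.2 ± 0.533 FPKM in tcp14-labelled and 95.6 ± 3.56 FPKM in wild type (SD, n = 3 each).

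**Figure D1:**
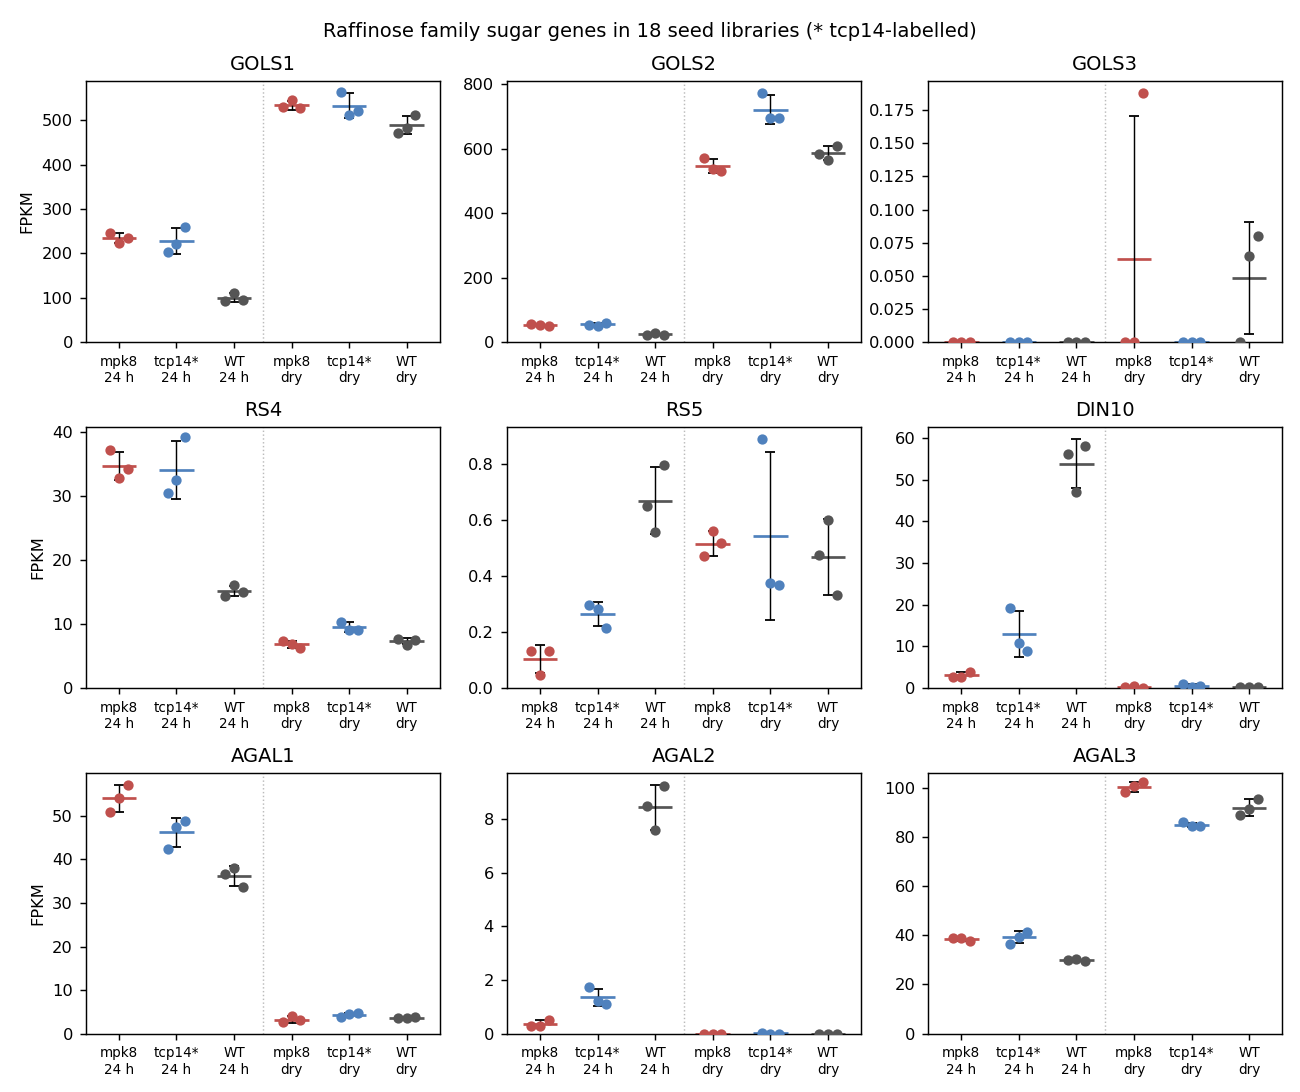
FPKM of each of the 9 genes in each of 18 libraries (points), with the mean (line) and SD (bar) of 3 libraries, for mpk8, tcp14-labelled (tcp14*) and wild type (WT) at 24 h and dry. GOLS1, GOLS2 and AGAL3 sit lower at 24 h than dry in each genotype, RS4, DIN10, AGAL1 and AGAL2 sit higher, and GOLS3 has at most 0.188 FPKM.

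**Figure D2:**
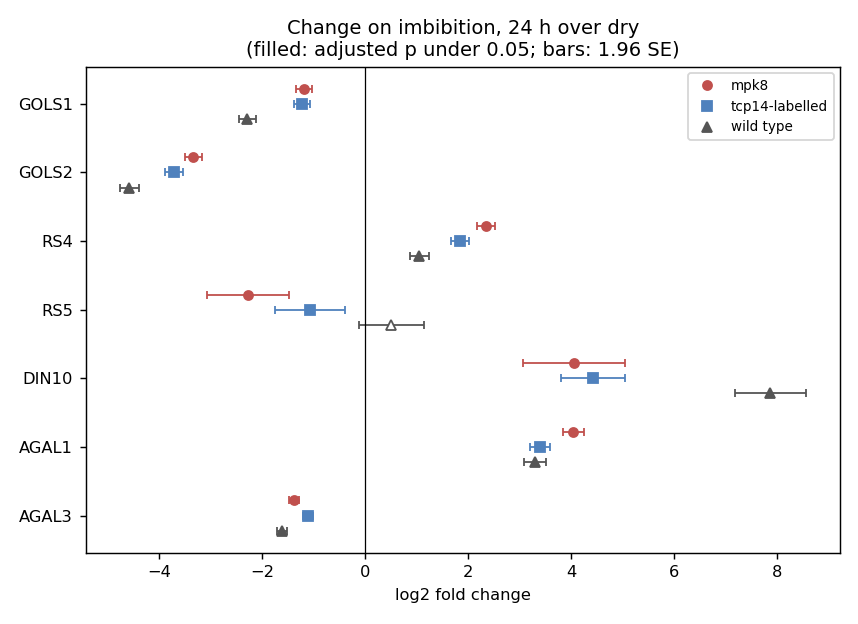
Log2 fold change of 7 genes, 24 h over dry, in mpk8, tcp14-labelled and wild-type seeds, with bars of the 95% interval and filled symbols for an adjusted p under 0.05. GOLS1 and GOLS2 lie below 0 in each genotype with wild type farthest left, and DIN10 lies above 0 with wild type farthest right at 7.87.

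These changes depend in size on the scaling. With library totals in place of the trimmed mean of M-values (TMM), the median log2 change of all tested genes moved by 1.09 in wild type, 0.82 in mpk8 and 0.73 in tcp14-labelled seeds. GOLS1 then changed by -1.20 and AGAL3 by -0.53 in wild type, with the direction kept. Of all calls, 79.6% were then higher in wild type, in place of 53.4%, 77.5% in mpk8, in place of 53.4%, and 75.6% in tcp14-labelled seeds, in place of 52.7%. The median log2 change of the 8 members was 0.78 in wild type, against 0.14 over all genes tested. It was 0.58 in mpk8, against 0.15 over all genes, and 0.38 in tcp14-labelled seeds, against 0.11 over all genes. Setting AGAL2 at its bound left the medians in wild type and mpk8 at the same values.

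At 24 h the mpk8 line differed from wild type in each tested member. GOLS1, GOLS2, RS4, AGAL1 and AGAL3 were higher and RS5, DIN10 and AGAL2 were lower, all 8 called. Of all genes tested, 64.6% were called, 33.8% higher and 30.8% lower. With library totals 19.8% of the calls were higher, in place of 52.3%. The median log2 difference was 0.47 over the members and 0.04 over all genes.

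GOLS1 had 246, 223 and 235 FPKM in mpk8, against the wild-type values of 93.6 to 112 FPKM given above, a 2.35-fold higher level (log2 difference 1.23 ± 0.08 SE, adjusted p = 1.08e-11). GOLS2 had 57.5, 52.0 and 51.5 FPKM in mpk8, 2.20-fold above wild type (1.14 ± 0.09, adjusted p = 1.47e-10). RS4 had 37.1, 32.8 and 34.3 FPKM in mpk8, 2.30-fold above wild type (1.20 ± 0.08, adjusted p = 2.07e-11). The 3 synthases thus differed from wild type by nearly the same factor, and each mpk8 library lay above each wild-type library.

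DIN10 had 2.72, 2.59 and 3.90 FPKM in mpk8, against 47.1 to 58.2 FPKM in wild type, 17.7-fold lower (log2 difference -4.14 ± 0.21 SE, adjusted p = 4.17e-13). AGAL2 had 0.273, 0.282 and 0.528 FPKM in mpk8, from 10 to 17 pairs in a library, against 8.50, 7.58 and 9.23 FPKM in wild type, 23.7-fold lower (-4.57 ± 0.22, adjusted p = 3.47e-12). RS5 had 0.134, 0.0455 and 0.134 FPKM in mpk8, from 3 to 10 pairs in a library, 6.35-fold below wild type (-2.67 ± 0.36, adjusted p = 7.54e-07). The genes that were low in mpk8 were thus RS5, its relative DIN10, and 1 of 3 alpha-galactosidases.

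AGAL1 had 50.9, 54.1 and 57.1 FPKM in mpk8, 1.5-fold above wild type (log2 difference 0.58 ± 0.07 SE, adjusted p = 3.91e-07). AGAL3 had 39.0, 38.7 and 37.5 FPKM in mpk8, 1.28-fold above wild type (0.36 ± 0.05, adjusted p = 1.27e-06). The call for AGAL3 was lost with library totals, where its difference was 0.02. That scaling moved the median difference of all genes by -0.32.

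The tcp14-labelled line differed from wild type at 24 h in the same 8 members, 5 higher and 3 lower. Beside them, 55.2% of all genes were called (27.3% higher and 28% lower). With library totals 12.6% of the calls were higher, in place of 49.4%. The median log2 difference was 0.37 over the members and 0 over all genes. This comparison uses the same 3 wild-type libraries as that of mpk8. GOLS1 had 202.5, 220.4 and 260.0 FPKM in tcp14-labelled libraries, 2.28-fold above wild type (log2 difference 1.19 ± 0.08 SE, adjusted p = 6.03e-11). GOLS2 had 53.5, 50.8 and 60.1 FPKM, 2.25-fold above wild type (1.17 ± 0.09, adjusted p = 3.42e-10). RS4 had 30.5, 32.5 and 39.2 FPKM, 2.25-fold above wild type (1.17 ± 0.08, adjusted p = 9.97e-11).

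DIN10 had 19.3, 10.8 and 8.88 FPKM in tcp14-labelled libraries, 4.12-fold below wild type (log2 difference -2.04 ± 0.18 SE, adjusted p = 5.14e-09). AGAL2 had 1.73, 1.21 and 1.12 FPKM, 6.17-fold below wild type (-2.63 ± 0.18, adjusted p = 1.06e-09). RS5 had 0.295, 0.284 and 0.215 FPKM, 2.52-fold below wild type (-1.33 ± 0.31, adjusted p = 0.00079). Replicate 1 of this group had the highest DIN10 and AGAL2 and the lowest GOLS1 and RS4 of its 3 libraries. Its replicates 1 and 3 differed more, over all genes, than any other pair of replicates within a group. AGAL1 had 42.5, 47.4 and 48.7 FPKM, 1.28-fold above wild type (0.35 ± 0.07, adjusted p = 0.000349), and AGAL3 had 36.6, 39.5 and 41.4 FPKM, 1.31-fold above wild type (0.39 ± 0.05, adjusted p = 9.99e-07). Both calls were lost with library totals, where the differences were 0.02 for AGAL1 and 0.05 for AGAL3 and the median of all genes moved by -0.33.

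**Figure D3:**
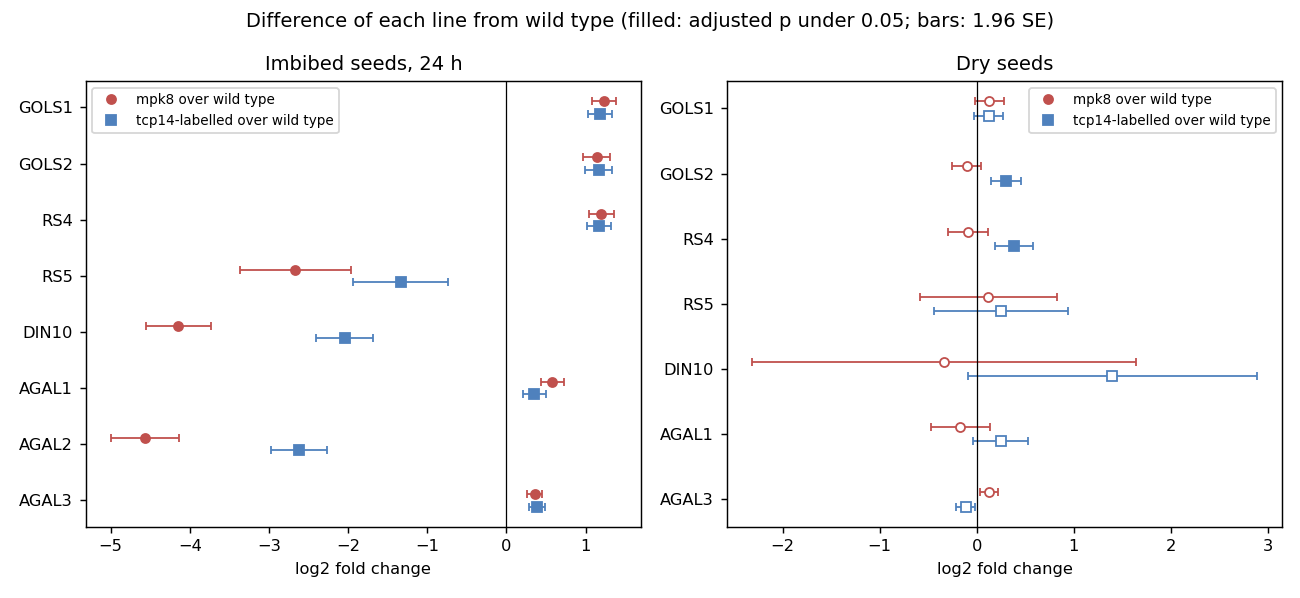
Log2 fold change of mpk8 and of tcp14-labelled seeds over wild type at 24 h (left, 8 genes) and dry (right, 7 genes), with bars of the 95% interval and filled symbols for an adjusted p under 0.05. At 24 h GOLS1, GOLS2 and RS4 lie between 1.14 and 1.23 in both lines, while RS5, DIN10 and AGAL2 lie below 0 and farther from 0 in mpk8; in dry seeds the filled symbols are GOLS2 and RS4 of the tcp14-labelled line.

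Set against each other at 24 h, the lines differed in 4 of 8 members, beside 21% of all genes (9.45% higher and 11.6% lower in mpk8). DIN10 was 4.29-fold lower in mpk8 than in tcp14-labelled seeds (log2 difference -2.10 ± 0.22 SE, adjusted p = 1.64e-07). AGAL2 was 3.84-fold lower in mpk8 (-1.94 ± 0.28, adjusted p = 4.31e-05). RS5 was 2.52-fold lower in mpk8 (-1.33 ± 0.42, adjusted p = 0.0276) and AGAL1 was 1.17-fold higher (0.23 ± 0.07, adjusted p = 0.03). The calls for RS5 and AGAL1 were both lost with the compared groups alone, without replicate 2 of imbibed mpk8 and without replicate 1 of imbibed tcp14-labelled seeds, which left 2 calls each time. That for RS5 was also lost without tcp14-labelled replicate 2 (adjusted p = 0.0713), and that for AGAL1 without mpk8 replicate 3 (0.119) and with single reads (0.0736).

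The other 4 members did not pass the test between the lines at 24 h. The 95% interval of the log2 difference was -0.11 to 0.19 for GOLS1, -0.19 to 0.13 for GOLS2, -0.12 to 0.18 for RS4 and -0.12 to 0.07 for AGAL3. The order at 24 h was therefore mpk8, then tcp14-labelled, then wild type from low to high for DIN10 and AGAL2, with each step called. RS5 had the same order, with its step between the lines lost in the settings named above. For GOLS1, GOLS2, RS4 and AGAL3, both lines lay above wild type and were not told apart. For AGAL3 the calls of both lines against wild type were lost with library totals, as given above.

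In dry seeds no tested member was called between mpk8 and wild type, beside 2.62% of all genes (1.53% higher and 1.09% lower). With library totals 19.9% of the calls made with that scaling were higher, in place of 58.6% of the calls with TMM. AGAL2 had no pair in either group, so 7 members had a value to test. The edgeR test called 0 of them and the Wald test of DESeq2 also 0, and at an unadjusted p under 0.05 there was 1, AGAL3. AGAL3 had 98.3, 100.5 and 102 FPKM in dry mpk8, against 88.7, 91.4 and 95.5 FPKM in dry wild type (log2 difference 0.13 ± 0.05 SE, adjusted p = 0.165). GOLS1 averaged 534.5 ± 10.02 FPKM in mpk8 and 489 ± 21.1 FPKM in wild type (SD, n = 3 each), with a 95% interval of the log2 difference of -0.02 to 0.28. For GOLS2 the interval was -0.26 to 0.05, and for RS4 it was -0.30 to 0.11. DIN10, with 1 to 13 pairs in a library, had an interval of -2.31 to 1.64. The summed level of the pollen markers, given above, was lower in each dry mpk8 library than in each dry wild-type library, and its part in these values was not tested.

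Between dry tcp14-labelled and dry wild-type seeds, 2 of 8 tested members were called, both higher, beside 11.4% of all genes (6.12% higher and 5.27% lower). GOLS2 had 772, 693 and 695 FPKM in tcp14-labelled libraries, against 582, 566 and 608 FPKM in wild type (log2 difference 0.30 ± 0.08 SE, adjusted p = 0.0123). RS4 had 10.4, 9.06 and 9.04 FPKM in tcp14-labelled libraries, against 7.69, 6.74 and 7.52 FPKM in wild type (0.38 ± 0.10, adjusted p = 0.0138). Each library of the line lay above each of wild type for both genes, but both calls were lost without tcp14-labelled replicate 1 or without wild-type replicate 2. DIN10 averaged 0.575 ± 0.266 FPKM in tcp14-labelled and 0.226 ± 0.0666 FPKM in wild-type dry seeds (SD, n = 3 each, adjusted p = 0.275).

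Between the lines in dry seeds, 4 of 8 members were called, 1 higher and 3 lower in mpk8, beside 25% of all genes (12.7% higher and 12.3% lower). With library totals 26% of the calls made with that scaling were higher, in place of 50.7% of the calls with TMM. GOLS2 was lower in mpk8 (log2 difference -0.40 ± 0.08 SE, adjusted p = 0.000489), as was RS4 (-0.48 ± 0.10, adjusted p = 0.000989). AGAL3 was higher in mpk8 (0.24 ± 0.05, adjusted p = 0.000638), with 98.3 to 102 FPKM in mpk8 and 84.2 to 85.8 FPKM in tcp14-labelled libraries. AGAL1 was lower (-0.42 ± 0.14, adjusted p = 0.0347), with overlapping libraries, and its call was lost with the compared groups alone (adjusted p = 0.0557) and without any 1 of 4 libraries, mpk8 replicates 1 and 3 and tcp14-labelled replicates 2 and 3. DIN10 had 0.143, 0.357 and 0.0296 FPKM in mpk8 and 0.846, 0.315 and 0.565 FPKM in tcp14-labelled libraries, which overlapped (log2 difference -1.74 ± 0.76, adjusted p = 0.102). It was called with all genes with a count (adjusted p = 8.49e-06), single reads (0.0415), the DESeq2 Wald test (0.011) and the compared groups alone (0.0071). AGAL3 lies on chromosome 3 in a stretch of locus numbers where 13 of 184 tested genes (7.07%) were called at 2-fold or more between dry tcp14-labelled and wild-type seeds, against 2.09% of all genes tested. The part of that stretch in the level of AGAL3 was not tested. In the stretches that hold the other members the share was 0 to 0.935%.

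The difference between genotypes in the change on imbibition was tested directly as an interaction. For mpk8, 5 members were called higher and 2 lower, beside 39% of all genes (24% higher and 15% lower). For tcp14-labelled seeds, 4 were called higher and 2 lower, beside 33.2% of all genes (19.2% higher and 13.9% lower). With library totals 26.4% of the calls were higher for mpk8, in place of 61.5%, and 12% for tcp14-labelled seeds, in place of 58%. A positive value means a smaller fall or a larger rise than in wild type. GOLS1 had 1.10 ± 0.11 in mpk8 (adjusted p = 1.1e-07) and 1.06 ± 0.11 in tcp14-labelled seeds (adjusted p = 2.36e-07). DIN10 had -3.81 ± 1.16 in mpk8 (adjusted p = 0.0118) and -3.44 ± 0.76 in tcp14-labelled seeds (adjusted p = 0.00112). AGAL1 was called in mpk8 at 0.75 and had 0.10 ± 0.16 in tcp14-labelled seeds (adjusted p = 0.68). AGAL2 is given no interaction, since it had no pair in dry mpk8 or dry wild type and 1 pair in dry tcp14-labelled seeds. The call for DIN10 in mpk8 was lost without dry mpk8 replicate 2, which left -2.78 (adjusted p = 0.236), and that for RS5 in tcp14-labelled seeds without dry replicate 1, which left -0.97. With library totals AGAL3 had -0.04 in mpk8 and 0.13 in tcp14-labelled seeds, neither called.

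Ratios between genes of the same library do not depend on the scaling. The ratio of RS4 to GOLS1 was 0.148 ± 0.00256 in mpk8, 0.150 ± 0.00167 in tcp14-labelled and 0.152 ± 0.00758 in wild type at 24 h, and the 9 imbibed libraries lay between 0.143 and 0.158. In dry seeds it was 0.0128 ± 0.00103 in mpk8, 0.0178 ± 0.000534 in tcp14-labelled and 0.0150 ± 0.00119 in wild type (SD, n = 3 each). The 3 genotypes thus overlapped at 24 h, while GOLS1 itself averaged 235 FPKM in mpk8, 228 FPKM in tcp14-labelled and 100.03 FPKM in wild type. The ratio of GOLS2 to GOLS1 was 0.229 ± 0.00822 in mpk8, 0.242 ± 0.0192 in tcp14-labelled and 0.244 ± 0.0149 in wild type at 24 h. In dry seeds it was 1.02 ± 0.0473 in mpk8, 1.35 ± 0.0172 in tcp14-labelled and 1.20 ± 0.0309 in wild type, with no overlap between genotypes.

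The ratio of DIN10 to GOLS1 separated the genotypes at 24 h, at 0.0131 ± 0.00307 in mpk8, 0.0595 ± 0.0320 in tcp14-labelled and 0.545 ± 0.107 in wild type. AGAL2 over AGAL1 did so too, at 0.00660 ± 0.00229 in mpk8, 0.0298 ± 0.00957 in tcp14-labelled and 0.235 ± 0.0375 in wild type. AGAL1 over AGAL3 was 1.41 ± 0.109 in mpk8, 1.18 ± 0.0208 in tcp14-labelled and 1.21 ± 0.0625 in wild type at 24 h, and its group means in dry seeds lay between 0.0325 and 0.0519. A two-sided exact permutation test of 3 libraries against 3 cannot fall below 0.1, so these ratios are given without one. The RefSeq coding sequences of family members had 72.8% identity between GOLS1 and GOLS2, 68.2% between AGAL1 and AGAL2 and 62.7% between RS5 and DIN10, and the longest run shared by any of the pairs compared was 26 bases.

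**Figure D4:**
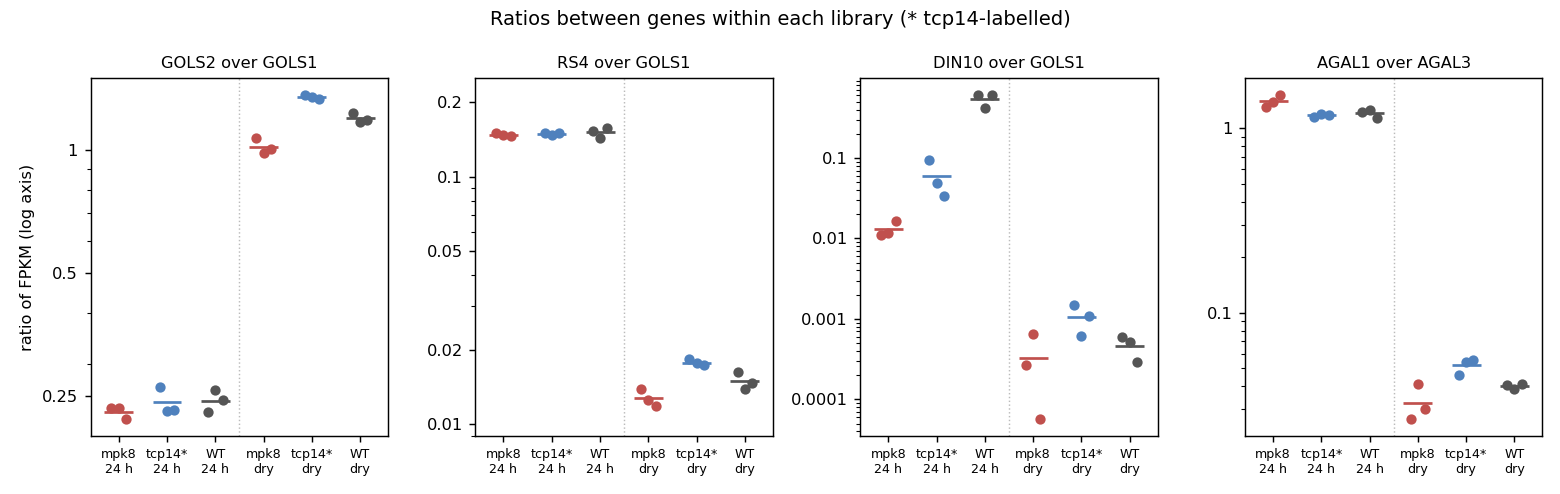
Ratio of FPKM between 2 genes in each library (points, log axis) with the mean of 3 libraries (line), for mpk8, tcp14-labelled (tcp14*) and wild type (WT) at 24 h and dry. RS4 over GOLS1 lies between 0.143 and 0.158 in all 9 imbibed libraries, whereas DIN10 over GOLS1 has group means of 0.0131 in mpk8 and 0.545 in wild type at 24 h.

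Of 27 other genes listed as supplying or using the same intermediates, 22 were tested. AT3G28340, listed as a galactinol synthase (GOLS8), is named GATL10 in RefSeq and is counted among those tested. On imbibition 7 rose and 15 fell in wild type, 5 rose and 14 fell in mpk8, and 6 rose and 15 fell in tcp14-labelled seeds, against the shares of all genes given above. Their median log2 change was -1.09 in wild type, -0.95 in mpk8 and -0.99 in tcp14-labelled seeds, with genes that had no pair in a group set at their bounds, beside the medians over all genes given above. MIPS2, which makes the inositol phosphate from which myo-inositol comes, averaged 22.4 ± 2.02 FPKM at 24 h and 564 ± 18.9 FPKM dry in wild type (log2 change -4.66 ± 0.09 SE, adjusted p = 1.33e-22). UGE5, an epimerase that makes UDP-galactose, averaged 0.378 ± 0.0711 FPKM at 24 h and 9.90 ± 0.640 FPKM dry in wild type (-4.72 ± 0.14, adjusted p = 1.46e-19). MIOX4, an oxygenase that uses myo-inositol, had no pair at 24 h in any genotype and was at least 144-fold lower at 24 h in wild type, 87.6-fold in mpk8 and 128-fold in tcp14-labelled seeds. AT3G06260, listed as a galactinol synthase (GOLS9) and named GATL4 in RefSeq, also had no pair at 24 h and was at least 32.0-fold lower in mpk8, 60.9-fold in tcp14-labelled and 59.5-fold in wild-type seeds. RS2, of the same family as RS5 and DIN10, fell in wild type (-1.72 ± 0.07).

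At 24 h, 8 of the 22 were higher and 10 lower in mpk8 than in wild type, beside 64.6% of all genes called, and 7 were higher and 9 lower in tcp14-labelled seeds, beside 55.2%. MIPS2 averaged 50.8 ± 5.67 FPKM in mpk8, 48.2 ± 5.59 FPKM in tcp14-labelled and 22.4 ± 2.02 FPKM in wild-type seeds. Its log2 difference of tcp14-labelled from wild-type seeds was 1.11 ± 0.08 SE (adjusted p = 4.46e-10). GOLS5, a further galactinol synthase, averaged 1.34 ± 0.356 FPKM in mpk8 and 0.444 ± 0.0894 FPKM in wild type (1.57 ± 0.29, adjusted p = 4.95e-05). VTC4, an inositol monophosphatase that also acts in ascorbate synthesis, averaged 1.69 ± 0.196 FPKM in mpk8 and 7.42 ± 0.703 FPKM in wild type (-2.14 ± 0.22, adjusted p = 1.34e-08). MIPS3, of the same function as MIPS2, averaged 0.0621 ± 0.0334 FPKM in mpk8 and 0.815 ± 0.1001 FPKM in wild type (-3.67 ± 0.47, adjusted p = 3.95e-07). GOLS5, VTC4 and MIPS3 were called in the same directions in tcp14-labelled seeds. Their log2 differences from wild type there were 1.35 ± 0.30, -1.16 ± 0.20 and -1.34 ± 0.35 (adjusted p = 6e-04, 4.27e-05 and 0.00249). RS2 averaged 30.3 ± 1.06 FPKM in mpk8, 41.7 ± 4.17 FPKM in tcp14-labelled and 55.0 ± 3.04 FPKM in wild-type seeds, and each step passed the test. In dry seeds, 2 of the 22 (MIPS1 and UGE3) were higher in mpk8 than in wild type, beside 2.62% of all genes called, and 2 (MIPS1 and MIOX1) were lower in tcp14-labelled seeds than in wild type, beside 11.4%. MIPS1 averaged 55.4 ± 3.24 FPKM in mpk8, 35.3 ± 3.17 FPKM in tcp14-labelled and 45.8 ± 1.15 FPKM in wild-type dry seeds. Between the lines, 4 were higher and 3 lower in dry mpk8, beside 25% of all genes called, and 1 higher and 5 lower in imbibed mpk8, beside 21%. By the interaction, 7 were higher and 7 lower for mpk8, beside 39% of all genes called, with VTC4 at -2.46 ± 0.56 and GOLS5 at 1.38 ± 0.35. For tcp14-labelled seeds 7 were higher and 5 lower, beside 33.2% of all genes called, with GOLS5 at 1.21 ± 0.36 and MIPS2 at 1.13 ± 0.11.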

How the data were processed

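Stranded paired-end libraries of polyadenylated RNA from dry and imbibed seeds were used, 3 for each of 6 groups named by genotype and state in the labels. Per the submitters' processing notes, the tools were TopHat2 and Bowtie2 and the genome build TAIR10 (versions are not given in the sources used here). The authors, per the file headers, counted properly paired reads on opposite strands per transcript model, treated singletons as unmapped and removed reads with equally good second hits. The deposited counts of pairs were used as raw counts. Model lengths from the same deposited files gave FPKM.

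Genes passing filterByExpr (18061) were fitted in 1 model of 18 libraries with edgeR 4.0.16 (limma 3.58.1, R 4.3.3), TMM factors and the quasi-likelihood test, and called at a Benjamini-Hochberg adjusted p under 0.05 over all genes tested. SE are the absolute log2 change over the square root of F. Intervals called 95% are 1.96 SE to each side. That multiplier does not allow for the small number of libraries, so the intervals are approximate and run narrow. A group without a pair was set at 3 pairs over the group. Intervals and floors from counts cover counting error only. The fit was tested on simulated data. TMM factors ran from 0.707 to 0.777 in dry libraries, 1.25 to 1.26 in imbibed mpk8, 1.16 to 1.33 in imbibed tcp14-labelled and 1.56 to 1.60 in imbibed wild-type libraries, at 12170793 to 21233207 pairs per library. No pair of replicates agreed within sampling noise, with a chi-square of 1.58 to 18.2 per gene.

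The 9 members and the list of 27 other genes were chosen with earlier results of these data known. By the rule for naming, all members and RS2 were named, with, in each comparison, up to 4 called genes of that list with the largest log2 change and at least 1 CPM in the higher group (some of these are counted only, and 1 gene of the list is not reported here). Alternatives were DESeq2 1.42.0 size factors, library totals, the DESeq2 Wald test, all genes with a count, single reads (a deposited count column), fits of the compared groups alone, a block for the replicate number, and leaving out every library in turn. Symbols and promoters came from RefSeq on TAIR10.1, where 32835 loci (97.7%) were found. AGAL3 has no symbol there.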

Additional observations from a re-analysis of the deposited data

Results flagged for a closer look

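The change on imbibition differed from that of wild type, by the interaction term of the edgeR fit, for 7 members in mpk8, beside 39% of all genes tested, and 6 in tcp14-labelled seeds, beside 33.2%. For the synthases the log2 interaction was 1.1 for GOLS1, 1.24 for GOLS2 and 1.29 for RS4 in mpk8, and 1.06 for GOLS1, 0.868 for GOLS2 and 0.786 for RS4 in tcp14-labelled seeds. RS5 had -2.78 in mpk8 and -1.58 in tcp14-labelled seeds, and DIN10 had -3.81 in mpk8 and -3.44 in tcp14-labelled seeds. AGAL1 had 0.748 in mpk8. AGAL3 had 0.231 in mpk8 and 0.5 in tcp14-labelled seeds. Both tests use the same wild-type libraries. Whether the interactions of the 2 lines differ from each other was not tested.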

How the results depend on the processing

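Counts of called members stayed within 1.5 times of the values given under DESeq2 size factors, library totals, the DESeq2 Wald test, all genes with a count, single reads and the replicate block. Fits of the compared groups alone gave 1 call (GOLS2, -0.13) for dry mpk8 against wild type, in place of 0, and 2 for mpk8 against tcp14-labelled at 24 h, in place of 4. Leaving out 1 library gave 0 to 2 calls for dry tcp14-labelled against wild type and 2 to 4 for mpk8 against tcp14-labelled at 24 h. With library totals the sign changed for GOLS1 between the dry lines (-0.094) and for the interactions of AGAL3 in mpk8 (-0.036, called with TMM) and AGAL1 in tcp14-labelled (-0.26). With the compared groups alone, GOLS1 between the dry lines had -0.0041. With 1 library left out, ranges that cross 0 were -0.065 to 0.35 for RS5 and -1.37 to 0.14 for DIN10 in dry mpk8 against wild type, and -0.36 to 0.49 for RS5 in dry tcp14-labelled against wild type. Between the dry lines they were -0.024 to 0.047 for GOLS1 and -0.37 to 0.48 for RS5. Between the lines at 24 h they were -0.034 to 0.14 for GOLS1, -0.080 to 0.033 for GOLS2, -0.044 to 0.13 for RS4 and -0.073 to 0.0048 for AGAL3. The causes were not tested.

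DIN10 in dry tcp14-labelled against wild type was called with all genes with a count (1.41) and with the compared groups alone (1.36). Over all genes, calls in dry mpk8 against wild type numbered 473, but 838 with all genes with a count, 1084 with the compared groups alone and 118 to 235 with 1 library left out. Dry tcp14-labelled against wild type gave 2058 calls, and 1352 without wild-type replicate 2. Imbibed mpk8 against tcp14-labelled gave 3796, and 2445 with the compared groups alone.

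What a replicate number marks is not given in the labels. Same-numbered libraries of compared groups had correlations of their deviations of -0.245 to 0.38, with 8 of 27 pairs above 0.1, so the numbers were not taken as pairing. With the replicate block the fit called 7 members for imbibition in wild type, 8 in mpk8 and 8 in tcp14-labelled, and no member's call changed in any comparison. Depth limits RS5, dry DIN10, dry AGAL2 and GOLS3.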

Other observations

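The genes whose log2 CPM followed a member most closely over all 18 libraries were named by a rule of the 2 highest Pearson correlations per member, and all these libraries share the contrast of imbibed and dry seeds. GOLS1 was followed by AT3G56350 (r = 0.998) and the catalase CAT3 (0.998), and GOLS2 by HMT3 (0.999) and AT4G27530 (0.999). RS4 was followed by GRF8 (0.995) and CuAO1 (0.991), and DIN10 by MEE67 (0.989) and WIH2 (0.988). AGAL1 was followed by RAP2.4 (0.997) and the DELLA gene GAI (0.997), AGAL2 by AT4G34790 (0.997) and HOL1 (0.996), and AGAL3 by AT3G16190 (0.999) and the ferritin FER2 (0.999). RS5, which has few pairs, was followed less closely, by SYP32 (0.930) and SLP2 (0.930).

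Among the members, over the same 18 libraries, the highest r of log2 CPM was that of GOLS2 and AGAL3 (0.99). The lowest was that of GOLS1 and AGAL2 (-0.97). GOLS1 and GOLS2 had r = 0.96, AGAL2 and DIN10 0.97, and GOLS2 and AGAL1 -0.95. By FPKM among 33602 models, GOLS2 ranked 187 in mpk8, 136 in tcp14-labelled and 155 in wild-type dry seeds, and 1474 in mpk8, 1397 in tcp14-labelled and 3182 in wild-type imbibed seeds. DIN10 ranked 12123 in mpk8, 5969 in tcp14-labelled and 1344 in wild-type imbibed seeds.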
